A study of Mus musculus with 12 samples.

Results

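Genes that mark the epithelium of the mouth and palate were followed in RNA from the palatal shelves of mouse embryos at gestational day 12. The 39 genes were taken as a named list by gene symbol, from 56691 genes with a row in every library. The rule itself uses no measured value, though the list was proposed with earlier results of these data known. All 39 passed the filter on low counts and were among the 17335 genes tested. They were described under 10 roles: surface adhesion molecules, basal keratins, simple keratins, transcription factors, splicing regulators, claudins, desmosome proteins, hemidesmosome and basement membrane proteins, membrane proteases with their inhibitors, and other epithelial proteins.

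The palatal shelves are paired outgrowths of the upper jaw that grow, lift and fuse to form the roof of the mouth. Each shelf is a core of mesenchyme under a thin epithelium, in which a basal layer sits on a basement membrane and a flat outer layer, the periderm, covers it. Epithelial cells are held together by the cadherins of adherens junctions, by the claudins of tight junctions and by desmosomes, and are fixed to the basement membrane by hemidesmosomes. Keratins form their internal filaments, and the basal pair Krt5 and Krt14 marks cells committed to a stratified epithelium, while Krt8 and Krt18 are the pair of simple and early epithelia.

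The 12 libraries formed 4 groups of 3. The control embryos were wild type and untreated. The knockout embryos were untreated too and had Dnmt1 deleted conditionally. This maintenance methyltransferase restores methylation on the daughter strand after replication. The AzadC embryos were wild type and exposed to 5-aza-2'-deoxycytidine, a cytosine analogue that inhibits DNA methyltransferases, and the vehicle embryos were wild type and received the vehicle of that drug. Every library was RNA of 2 embryos of like genotype, which makes 6 embryos in a group by the extraction protocol; elsewhere the submitters give 3 pooled animals. The sources used here do not give the Cre driver, the deleted exons, the strain, or the dose, route and time of the drug. The protocols ask for embryos of several litters in each genotype but do not tie a library to a litter. The p-values therefore cover the spread between pooled libraries.

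Libraries held 12640525 to 33113777 rounded counts, with 10 or more counts for 15109 to 17250 genes. Levels are CPM, counts relative to the TMM-scaled library total, and fold changes are log2 values with their standard errors (SE). A gene was called where the adjusted p of edgeR's quasi-likelihood test, taken over all 17335 genes, was below 0.05. Groups said to overlap or to be apart are described by their 3 libraries each. The share of all genes that were apart was taken in no comparison, so being apart is no call. Dnmt1 itself (chromosome 9, 20907209 to 20959888, minus strand, mm10) was at 286, 278 and 258 CPM in the control libraries and at 201, 179 and 191 CPM in the knockout libraries. It was at 452, 451 and 448 CPM with vehicle and at 408, 482 and 411 CPM with AzadC. Its count covers the whole gene, so the reads left in the knockout do not show whether the deleted exons were lost. The change was -0.52 (SE 0.07, edgeR adjusted p = 0.000369) against control and -1.24 (SE 0.07, edgeR adjusted p = 1.62e-07) against vehicle. The vehicle libraries also stood above the controls, by 0.72 (SE 0.07, edgeR adjusted p = 0.000286). The control group and the vehicle group, both wild type, therefore differed in the targeted gene itself.

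Promoter sequence was examined for the members because DNA methylation and the classical repressors of epithelial genes both act there. RefSeq's promoter table (GRCm38.p6, the patch release of mm10) held 23 promoters of 21 members, and the other 18 members were not examined. The 250 bases before each start were searched on both strands for CAGGTG, the E-box that zinc finger repressors of the SNAIL and ZEB families are known to bind. The E-box was present in 15 of 23 member promoters, or 65.2%, and in 17.2% of all 32851 promoters of the same length. No E-box match overlapped a match to another motif searched. A motif of the Grainyhead-like type, AACCNGTT, was present in 2 member promoters (8.7%, against 1.79% of all), those of Rab25 and Sfn. An ETS-type motif, CCGGAAG, stood in 3 (13.0% against 6.91%), and ACATGTC, part of a site of the p53 and p63 type, in 0 against 1.62%. The median number of CpG dinucleotides, the bases that Dnmt1 methylates, was 8 in the member promoters and 6 in all. These matches describe letters only and show no binding and no methylation.

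The promoters of 5 members are given: Epcam and Krt8, found across the epithelium, and Grhl3, Krt5 and Krt14, each called between some groups. Dsc3 and Ehf, also called between some groups, are among the 18 members whose promoters were not examined. The 5 given were chosen after the values of their genes were seen. The E-box letters CAGGTG, or CACCTG where the match is on the other strand, are in capitals. Each run holds the 250 bases before the RefSeq start, 5′ to 3′ on the gene's own strand, in GRCm38.p6. Epcam lies on the plus strand at chr17:87635729-87635978 and held 2 E-boxes and 8 CpGs. Krt8 (chr15:102004343-102004592), Grhl3 (chr4:135573633-135573882) and Krt5 (chr15:101712906-101713155) lie on the minus strand with 1 E-box each and 3, 8 and 2 CpGs. Krt14 (chr11:100206031-100206280, minus strand) held no E-box match in this window and 5 CpGs, and its RefSeq start lies inside the gene span of the annotation used for the counts.
Epcam: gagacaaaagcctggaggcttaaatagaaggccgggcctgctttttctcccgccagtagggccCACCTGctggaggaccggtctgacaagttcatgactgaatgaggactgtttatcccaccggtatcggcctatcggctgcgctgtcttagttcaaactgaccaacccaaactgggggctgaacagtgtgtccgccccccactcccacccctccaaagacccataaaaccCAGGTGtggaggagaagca
Krt8: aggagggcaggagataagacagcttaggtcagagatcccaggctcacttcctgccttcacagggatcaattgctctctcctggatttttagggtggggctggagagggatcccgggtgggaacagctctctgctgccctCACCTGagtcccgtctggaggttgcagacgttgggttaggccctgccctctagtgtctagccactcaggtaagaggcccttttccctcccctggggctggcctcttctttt
Grhl3: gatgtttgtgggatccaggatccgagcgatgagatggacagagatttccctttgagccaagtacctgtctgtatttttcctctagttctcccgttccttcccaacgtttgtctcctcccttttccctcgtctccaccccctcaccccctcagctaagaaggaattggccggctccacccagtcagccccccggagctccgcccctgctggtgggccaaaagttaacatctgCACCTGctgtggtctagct
Krt5: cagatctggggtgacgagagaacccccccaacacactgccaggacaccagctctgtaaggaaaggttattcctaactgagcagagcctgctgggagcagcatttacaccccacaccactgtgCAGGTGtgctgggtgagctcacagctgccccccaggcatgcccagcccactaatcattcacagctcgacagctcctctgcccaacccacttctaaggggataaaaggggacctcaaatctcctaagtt
Krt14: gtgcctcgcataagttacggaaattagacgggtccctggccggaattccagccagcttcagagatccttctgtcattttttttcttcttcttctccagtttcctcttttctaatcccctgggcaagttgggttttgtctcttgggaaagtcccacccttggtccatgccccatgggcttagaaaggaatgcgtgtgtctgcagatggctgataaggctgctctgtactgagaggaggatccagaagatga

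The epithelium was present in every library, and most of its genes were called in no comparison between the 4 groups. Epcam, a surface adhesion molecule and a standard marker of epithelial cells (chromosome 17, 87635979 to 87651129), was at 52.5, 24.3 and 41.8 CPM in control and at 37.0, 19.8 and 43.4 CPM in knockout. It was at 41.7, 38.8 and 41.2 CPM with vehicle and at 31.7, 30.1 and 40.1 CPM with AzadC. The groups overlapped, and the lowest values belonged to control 2 and knockout 2. The change of Epcam was -0.25 (SE 0.27, edgeR adjusted p = 0.610) in knockout against control. Cdh1, or E-cadherin, the adhesion protein of the adherens junction, was at 78.2, 48.8 and 68.5 CPM in control, at 75.3, 41.3 and 80.3 CPM in knockout, at 70.3, 68.2 and 78.0 CPM with vehicle and at 66.6, 67.2 and 73.7 CPM with AzadC. Its lowest values were again those of control 2 and knockout 2.

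**Figure D1:**
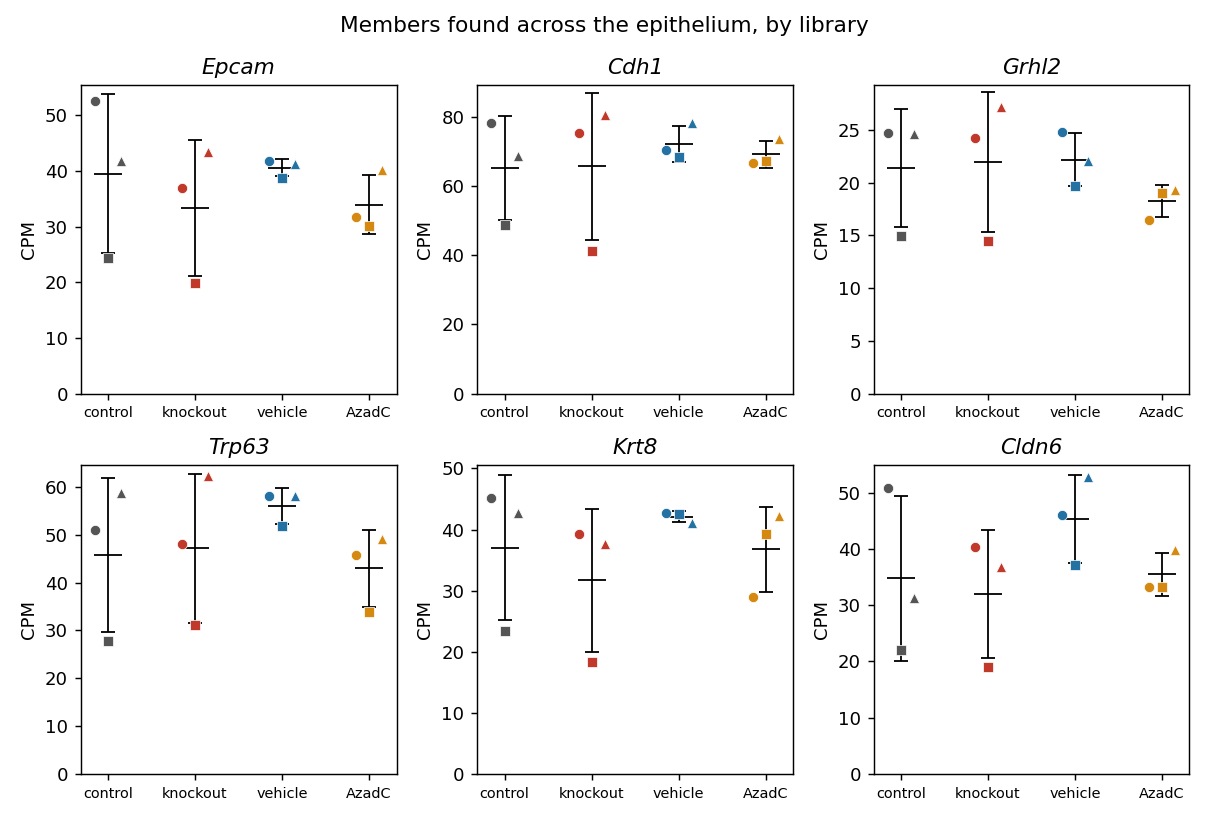
Levels of Epcam, Cdh1, Grhl2, Trp63, Krt8 and Cldn6 in CPM (vertical axes, from 0) in the 4 groups; circles, squares and triangles are replicates 1, 2 and 3, and bars are the mean and SD of 3 libraries. The squares of control and knockout are the lowest points of their groups in all 6 panels, and the control and knockout groups overlap. For Grhl2 and Trp63 the AzadC libraries lie below the vehicle libraries.

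Those libraries stood apart for the list as a whole. The summed level of the 39 members was 734 CPM in control 2 and 658 CPM in knockout 2, and 862 to 1148 CPM in the other 10 libraries. A score over 20 further epithelial genes that are not members was -0.46 and -0.52 log2 units in these libraries and -0.16 to 0.35 in the others. In bulk RNA, fewer epithelial cells and less RNA per epithelial cell cannot be told apart. Results of the knockout comparison are therefore given below with and without both libraries, and with that score as a covariate. Nasal and airway genes, which would mark respiratory epithelium in the dissection, summed to 2.999 to 14.5 CPM over 9 genes, and Scgb1a1 and Bpifa1 were at 0 in all 12 libraries.

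Compared per transcript length as mean TPM over 12 libraries, the most abundant members were Cldn6 at 46.0, Itga6 at 42.4, Epcam at 40.9 and Spint2 at 40.4. The least abundant were Pkp1 at 1.59, Ehf at 0.95 and Ovol1 at 0.73. Cldn6, a claudin of embryonic epithelia, thus ranked above Cldn4 at 25.0, Cldn7 at 22.9 and Cldn3 at 1.65 TPM. Among keratins the order was Krt8 at 33.6, Krt18 at 25.8, Krt15 at 19.4, Krt14 at 14.95, Krt19 at 12.8, Krt7 at 11.96 and Krt5 at 5.89 TPM. The position of Krt14 in that order differed by group, with means of 31.9 TPM in control, where it stood above Krt15, and 7.70 TPM with AzadC, where it did not. Krt8 was above Krt14 by mean TPM in all 4 groups, at 34.5 against 31.9 in control and at 38.7 against 8.25 with vehicle. RSEM shares reads that fit several genes, and the counts of 29 of the 39 members were whole within 0.005 in all 12 libraries; those of Esrp2 and Ovol1 were whole in 0.

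**Figure D2:**
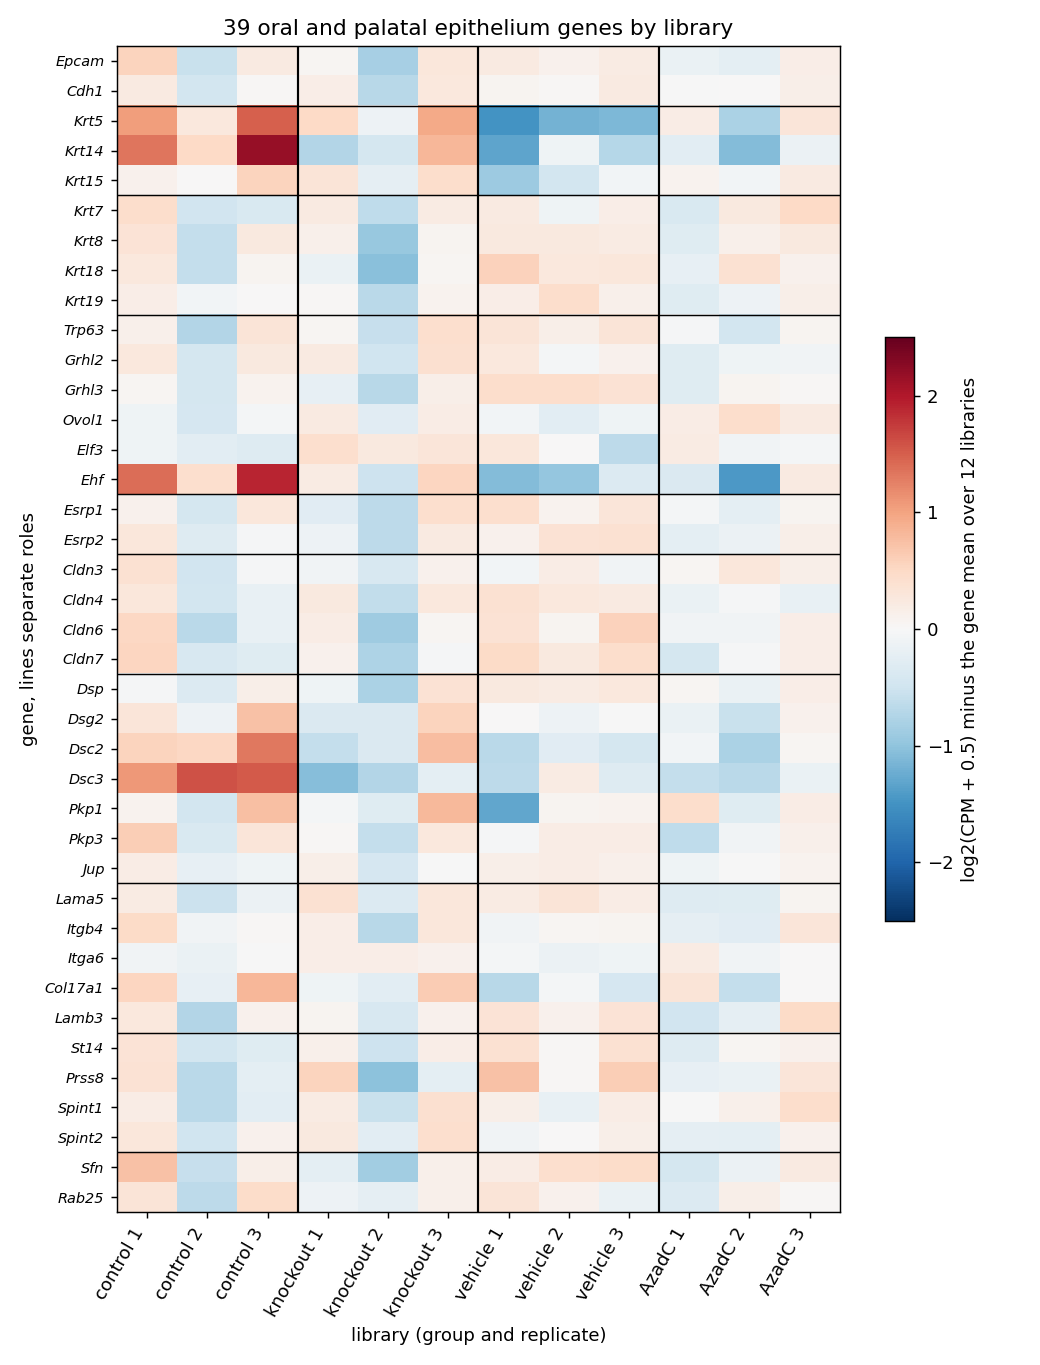
Each row is a member and each column a library; colour is log2(CPM + 0.5) minus the gene's mean over 12 libraries, red above and blue below it, with lines between roles and groups. Columns control 2 and knockout 2 are pale to dark blue over most rows, and Krt5, Krt14, Ehf, Dsc2 and Dsc3 depart from the other rows with red in control 1 and control 3.

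The members followed the other epithelial genes to different degrees, described here by the correlation of each gene with the score of the 20 other epithelial genes over the 12 libraries. All points share the same libraries and scaling. Pearson's r was above 0.8 for 16 members, led by Grhl2 at 0.95, a transcription factor that maintains epithelial junction genes, Cdh1 at 0.94, Epcam at 0.93 and Trp63 at 0.92. Trp63 encodes p63, the master regulator of stratified epithelia. It was below 0.5 for 11 members, among them Ehf at 0.23, Krt14 at 0.13, Dsc2 at 0.12, Krt5 at 0.08 and Dsc3 at -0.11. Itga6 was in the same range at -0.04 but hardly varied, with an SD of 0.13 log2 units over the libraries. Krt14, Ehf, Krt5 and Dsc3 varied most, with SDs of 1.03, 0.99, 0.96 and 0.91 log2 units. Over all 12 libraries, the genes that varied most were thus not those that followed the other epithelial genes. This r mixes differences between groups with those within groups. Within control and within knockout, Krt5 and Ehf were lowest in replicate 2, as Epcam was. Krt14 was lowest there only in control, and Dsc3 in neither.

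**Figure D3:**
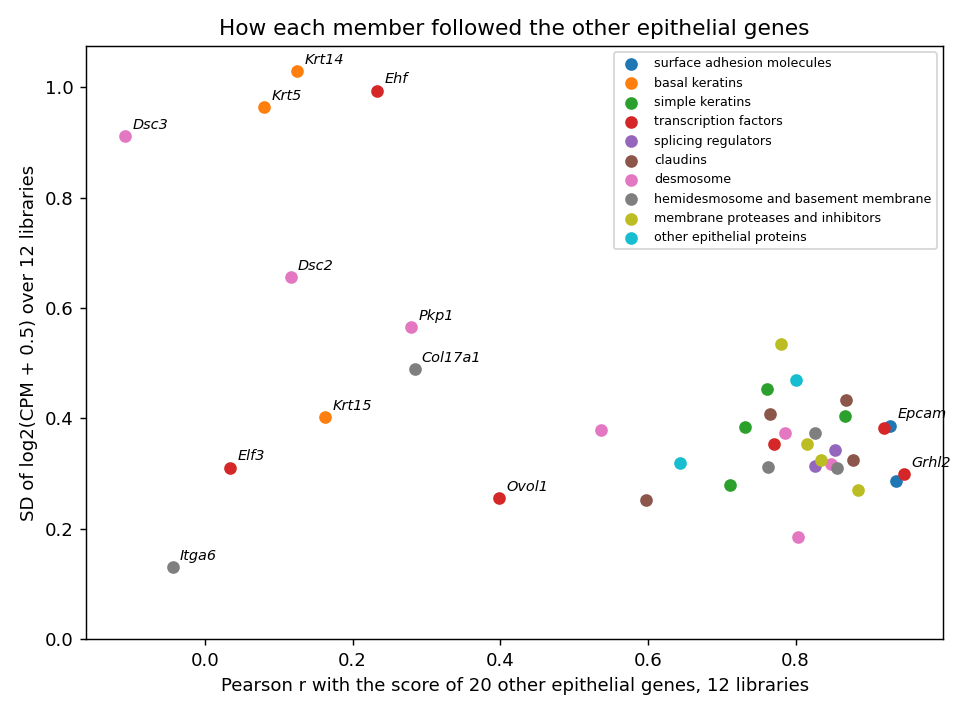
The horizontal axis is Pearson's r of each member with the score of 20 other epithelial genes over 12 libraries and the vertical axis is the SD of log2(CPM + 0.5); points are members coloured by role. Most members stand at r above 0.5 with an SD below 0.6, and Krt14, Ehf, Krt5 and Dsc3 stand at r below 0.25 with an SD above 0.9.

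The vehicle comparison asked whether the embryos given vehicle differed from untreated ones, both being wild type. Of the 39 members, 0 were called higher and 4 lower: the basal keratins Krt5 and Krt14, the transcription factor Ehf and the desmosomal cadherin Dsc3. Over all genes tested, 1.46% were called higher and 2.06% lower. The other 35 members were not called, and the median change of the list was 0.17, against -0.0026 over all genes. Of the 39 members, 26 had values above 0 and 13 below.

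Krt5, the type II keratin of basal cells (chromosome 15, 101707070 to 101712898, minus strand), was at 12.8, 7.27 and 17.8 CPM in control and at 1.79, 2.34 and 2.46 CPM with vehicle. The groups did not overlap, and the lowest control library was above the highest vehicle library. The change was -2.498 (SE 0.39, edgeR adjusted p = 0.00626), a 5.65-fold lower level. Krt14, its type I partner in the filament (chromosome 11, 100203162 to 100207548, minus strand), was at 22.8, 12.4 and 40.8 CPM in control and at 3.15, 7.96 and 5.12 CPM with vehicle, again without overlap. It fell by 2.19 (SE 0.50, edgeR adjusted p = 0.0304). The call for Krt14 was lost without control 3 (0.0989), vehicle 1 (0.125) or vehicle 3 (0.116), and with limma-voom (0.0542), over a range of 6.46e-07 to 0.125 in 15 alternatives. That for Krt5 held in all 15, from 3.17e-09 to 0.0363. Krt15, a further basal keratin, was at 18.9, 17.5 and 26.1 CPM in control and at 9.09, 12.5 and 16.6 CPM with vehicle, also without overlap. Its change of -0.70 (SE 0.22, edgeR adjusted p = 0.101) was not called.

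Ehf encodes an ETS transcription factor of differentiating epithelia (chromosome 2, 103263433 to 103303278, minus strand). It was at 4.38, 1.99 and 6.44 CPM in control and at 0.371, 0.449 and 0.967 CPM with vehicle, and the groups did not overlap. It fell by 2.80 (SE 0.64, edgeR adjusted p = 0.0321), 6.96-fold, at levels of few reads, since its smallest count in any library was 3. Without control 1, control 3, vehicle 1, vehicle 2 or vehicle 3 the adjusted p was 0.0580, 0.0968, 0.129, 0.0963 or 0.0709, and with limma-voom 0.0553, over a range of 7.19e-05 to 0.129 in 15 alternatives. Elf3, a related ETS factor, was at 2.59, 2.26 and 2.17 CPM in control and at 3.52, 2.83 and 1.61 CPM with vehicle, with overlap and no call.

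Dsc3, a desmocollin, is a cadherin of desmosomes in the basal layers of stratified epithelia. It was at 8.19, 11.7 and 11.3 CPM in control and at 2.10, 4.21 and 2.78 CPM with vehicle. The groups were apart, and the change was -1.76 (SE 0.30, edgeR adjusted p = 0.00973), lost only without vehicle 3 (0.0521) among 15 alternatives, whose lowest adjusted p was 2.31e-06. Dsc2, its more widely expressed relative, was at 11.2, 10.9 and 19.2 CPM against 4.51, 6.04 and 5.36 CPM, also apart, with a change of -1.36 (SE 0.36, edgeR adjusted p = 0.0568) that was not called. Of the remaining desmosome genes, the plaque proteins Dsp, Pkp1, Pkp3 and Jup and the desmoglein Dsg2, none was called. Dsp, the plaque protein that ties desmosomes to keratin, was at 127, 102 and 144 CPM in control and at 152, 149 and 154 CPM with vehicle. Col17a1, the collagen of hemidesmosomes, was at 20.3, 11.8 and 25.0 CPM in control and at 8.29, 13.3 and 10.2 CPM with vehicle, which overlapped (edgeR adjusted p = 0.161).

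**Figure D4:**
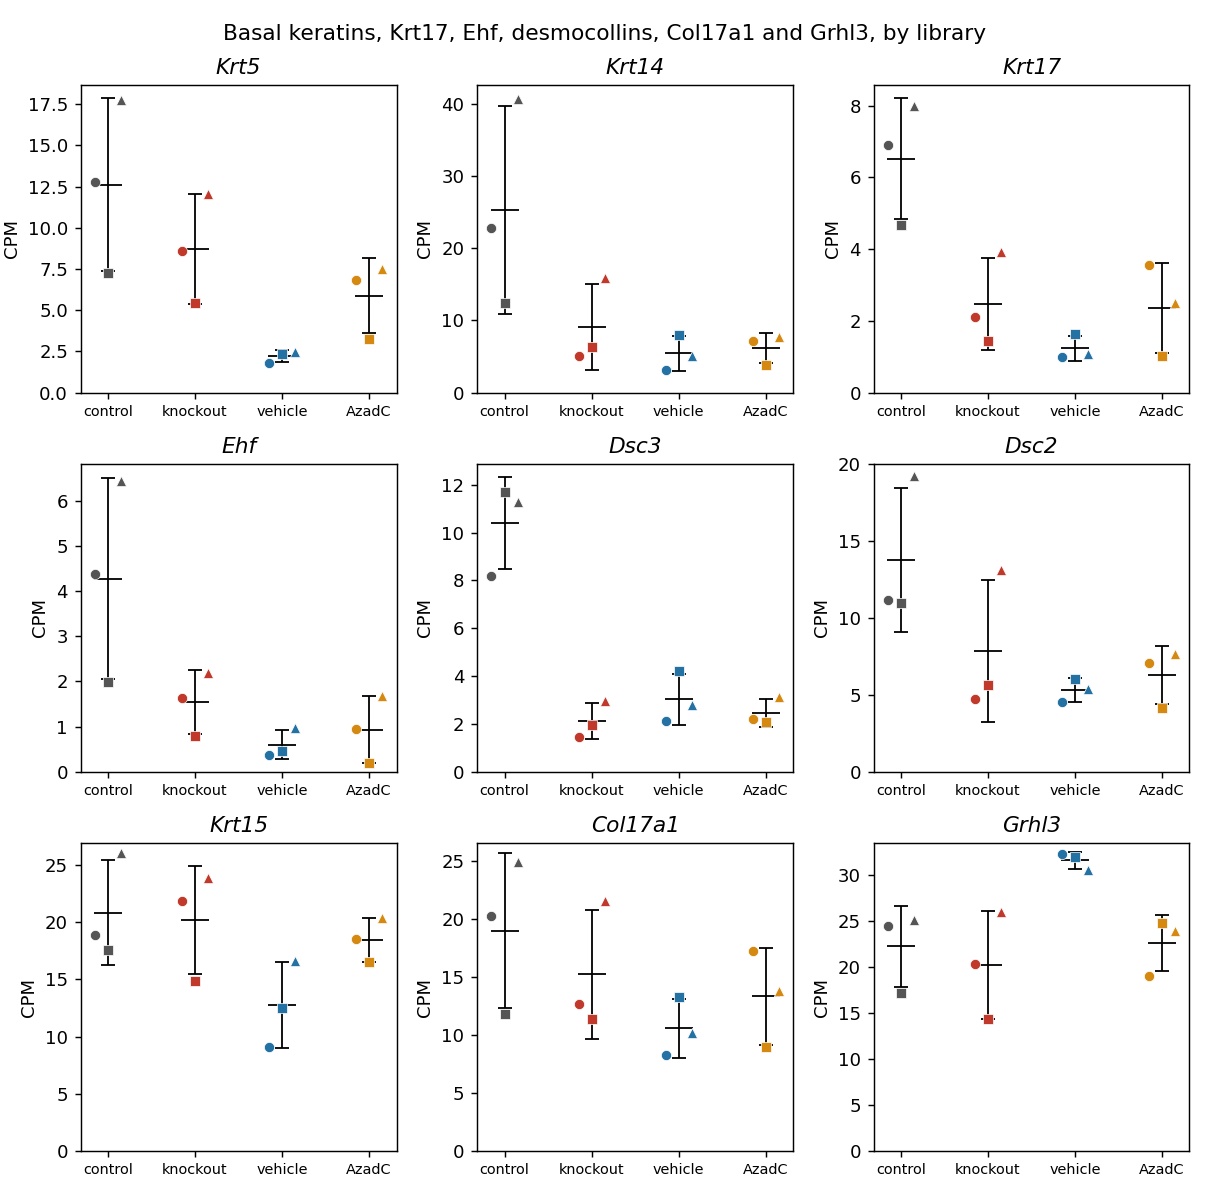
Levels in CPM (vertical axes, from 0) of the basal keratins Krt5, Krt14 and Krt15, of Krt17, Ehf, the desmocollins Dsc3 and Dsc2, Col17a1 and Grhl3 in the 4 groups; circles, squares and triangles are replicates 1, 2 and 3, and bars are the mean and SD of 3 libraries. For Krt5, Krt14, Krt15, Krt17, Ehf, Dsc3 and Dsc2 the 3 control libraries lie above the 3 vehicle libraries, and for Grhl3 they lie below.

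The same direction was seen outside the members in Krt17, a keratin of periderm and activated basal cells. It was at 6.91, 4.67 and 7.98 CPM in control and at 0.989, 1.64 and 1.09 CPM with vehicle, a change of -2.37 (SE 0.44, edgeR adjusted p = 0.0146; 0.0729 without vehicle 1 and 0.0706 without vehicle 3, over a range of 6.56e-06 to 0.0729). Relative to Epcam within the same library, the TPM of Krt5 was 0.177, 0.217 and 0.298 in control and 0.0325, 0.0417 and 0.0429 with vehicle. For Krt14 this ratio was 0.489, 0.585 and 1.03 in control and 0.115, 0.257 and 0.173 with vehicle. Epcam itself changed by 0.04 (edgeR adjusted p = 0.972) in this comparison.

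With the score of the other epithelial genes as a covariate, 0 members were called higher and 6 lower in vehicle against control, namely Krt5, Krt14, Krt15, Ehf, Dsc2 and Dsc3. The shares over all genes in that fit were 1.07% and 1.52%. Krt5 changed by -2.71 (edgeR adjusted p = 0.000993) and Dsc2 by -1.52 (0.0414) in it. Markers of other tissues moved in the same comparison, and their part in these results was not tested. Of 9 cartilage genes tested 3 were lower, and the sum of all 12 listed ran from 884 to 2835 CPM in control and from 1370 to 1538 CPM with vehicle. Of 8 red cell genes 3 were higher, with sums of 1836 to 4997 and 3648 to 5044 CPM. Of 8 neuronal genes 2 were lower, Nefl and Nefm, and 1 was higher, with sums over all 9 listed of 57.0 to 70.3 CPM in control and 36.7 to 46.5 CPM with vehicle. Summed muscle genes ran from 17.3 to 128 CPM in control and from 62.1 to 504 CPM with vehicle.

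The knockout comparison asked which epithelial transcripts differed when Dnmt1 was deleted. Of the 39 members, 0 were called higher and 1, Dsc3, was called lower, where 7.83% and 6.43% of all genes were called higher and lower. The median change was -0.12 against -0.0026 over all genes, with 25 members below 0 and 14 above. An unadjusted p below 0.05 in edgeR's test was found for 6 members. The share of all genes at that unadjusted threshold was not taken, so this count shows no excess among the members.

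Dsc3 was at 1.46, 1.97 and 2.96 CPM in the knockout libraries, all below the 8.19 to 11.7 CPM of the controls. It fell by 2.30 (SE 0.31, edgeR adjusted p = 0.000348), 4.91-fold, and the call held in all 17 alternatives, with adjusted p from 6.01e-11 to 0.0136. The knockout and vehicle libraries of Dsc3 were both low, and knockout against vehicle gave -0.54 (SE 0.31, edgeR adjusted p = 0.317). Dsc2 was at 4.74, 5.65 and 13.1 CPM in knockout, overlapping its controls, with a change of -0.81 (SE 0.36, edgeR adjusted p = 0.153). The other desmosomal cadherin, Dsg2, changed by -0.35 (SE 0.27, edgeR adjusted p = 0.439).

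Krt14 was at 5.02, 6.24 and 15.9 CPM in knockout, and its highest library overlapped the lowest control. The change was -1.49 (SE 0.49, edgeR adjusted p = 0.0571). Krt5 was at 8.62, 5.41 and 12.1 CPM, with overlap and a change of -0.53 (SE 0.36, edgeR adjusted p = 0.368). Ehf was at 1.64, 0.787 and 2.19 CPM, the highest just above the lowest control, with a change of -1.47 (SE 0.60, edgeR adjusted p = 0.124). None of these 3 was called. Relative to Epcam in the same library, the TPM of Krt14 was 0.158, 0.441 and 0.403 in knockout, below the 0.489 to 1.03 of the controls. For Dsc3 the ratio was 0.05001, 0.151 and 0.0846 in control and 0.0124, 0.0357 and 0.0253 in knockout, again without overlap.

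Replicate numbers were treated as pairs of control and knockout libraries because of a check on these same data, described under the processing. A fit of these 6 libraries with the number as a block was added after seeing the data. In it 5 members were lower and 1 was higher. Those lower were Dsc3 at -2.32 (edgeR adjusted p = 0.000562), Krt14 at -1.50 (0.00393), Ehf at -1.44 (0.0087), Dsc2 at -0.90 (0.0130) and Krt5 at -0.52 (0.0419). The member that was higher was Lama5, the laminin chain of epithelial basement membranes, at 0.27 (edgeR adjusted p = 0.0447). In that fit 8.59% of 16572 genes were higher and 6.82% lower. With the score of the other epithelial genes as a covariate 0 members were higher and 5 lower, where the shares of all genes were 7.38% and 5.99%. These were Dsc3 at -2.29 (edgeR adjusted p = 0.000775), Ehf at -1.62 (0.0461), Krt14 at -1.56 (0.0341), Sfn at -0.55 (0.0389) and Epcam at -0.35 (0.0198). Sfn encodes the epithelial 14-3-3 sigma protein. Without control 2 and knockout 2 together, the member called lower was Dsc3, as with all libraries.

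**Figure D5:**
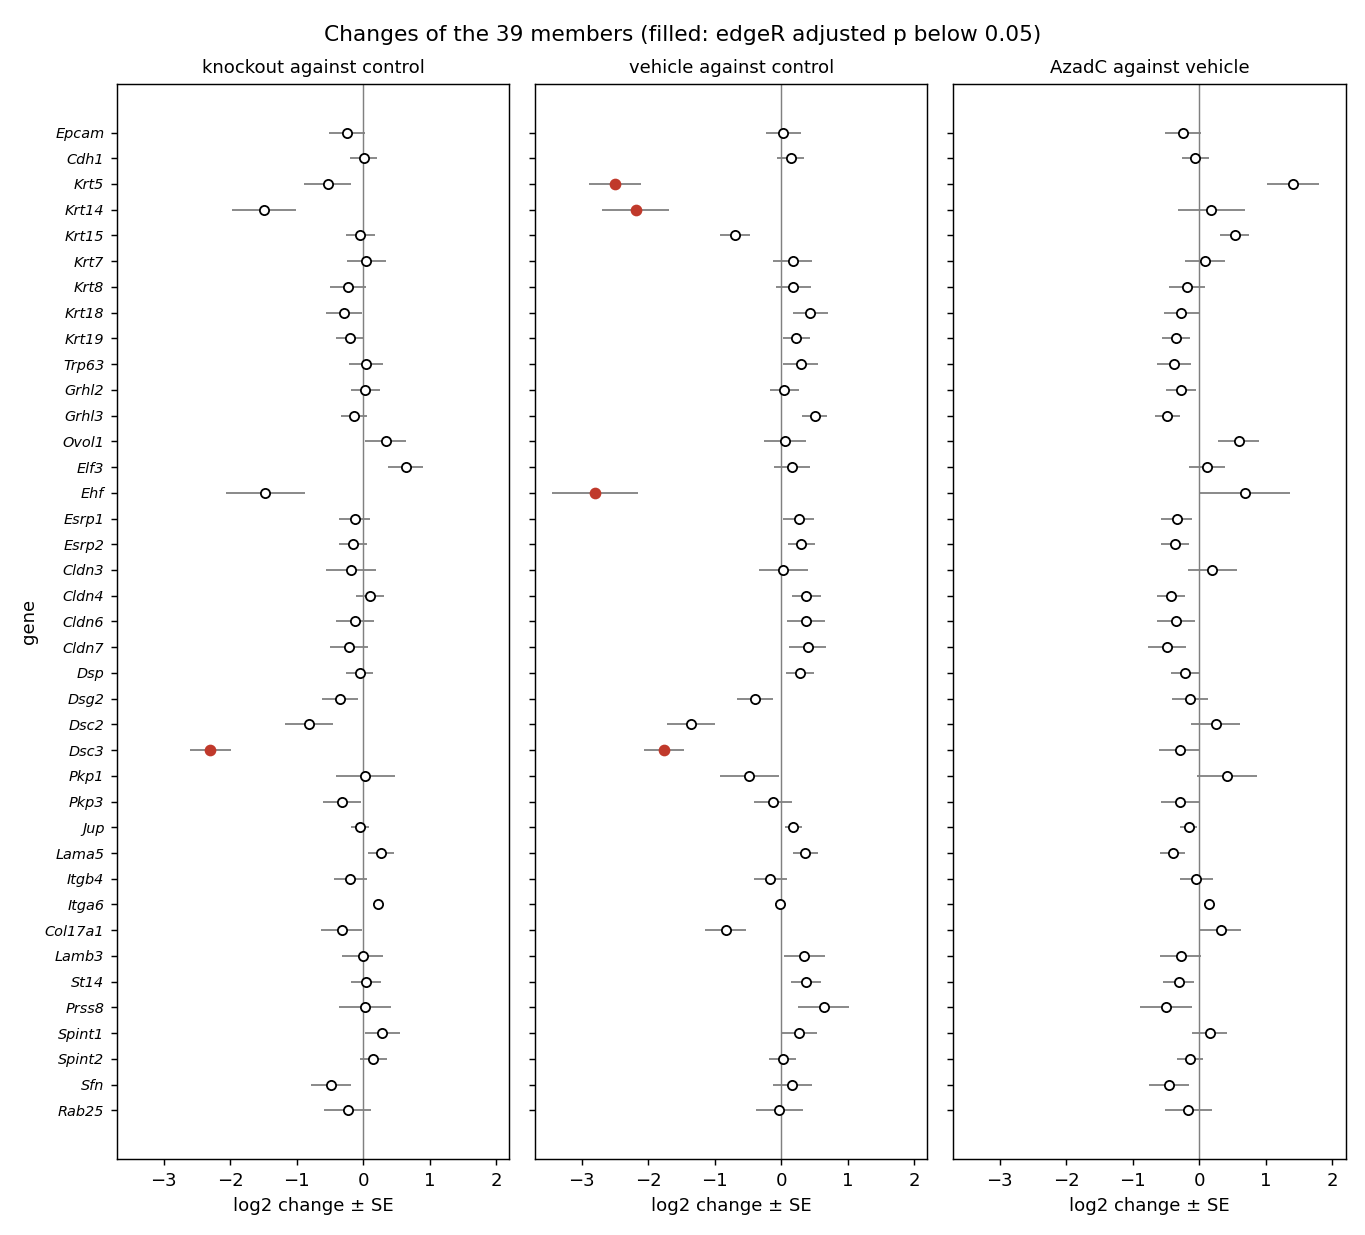
Log2 change with SE of each of the 39 members in knockout against control, vehicle against control and AzadC against vehicle; filled points have an edgeR adjusted p below 0.05. Dsc3 is filled in the first panel, Krt5, Krt14, Ehf and Dsc3 in the second, and none in the third.

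By role, the other members had small changes in the knockout that did not pass the test. The simple keratins Krt7, Krt8, Krt18 and Krt19 ranged from -0.28 to 0.05 in log2 change, and the claudins from -0.21 to 0.10. The membrane protease St14, known as matriptase, its activating partner Prss8 and the inhibitors Spint1 and Spint2 ranged from 0.02 to 0.29. Esrp1 and Esrp2, which set the epithelial pattern of splicing, had values of -0.12 and -0.15. Ovol1, a repressor of mesenchymal genes, was at 0.34 and Rab25, a small GTPase of epithelial membrane recycling, at -0.23. None of these 16 was called. Among the transcription factors, Trp63 was at 51.1, 27.7 and 58.7 CPM in control and at 48.0, 31.2 and 62.4 CPM in knockout. Grhl2 was at 24.7, 14.9 and 24.6 CPM in control and at 24.2, 14.5 and 27.1 CPM in knockout. Both overlapped, so that neither main regulator of the epithelial state differed beyond the spread between libraries.

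Itga6 and Elf3 had groups that did not overlap but were not called by edgeR over all 12 libraries. The share of all genes separated in this way was not taken here either. Itga6, the integrin of hemidesmosomes, was at 77.4, 73.1 and 81.9 CPM in control and at 91.7, 92.3 and 88.3 CPM in knockout. All knockout libraries were higher, including knockout 2, and the change was 0.23 (SE 0.07, edgeR adjusted p = 0.0561). Itga6 did not follow the score of the other epithelial genes (r = -0.04), and which cells its reads came from was not tested. Itga6 passed the threshold with DESeq2 (0.0359), with limma-voom (0.0459) and without control 3 (0.0423), over a range of 0.0359 to 0.377 in 17 alternatives. Itgb4, its partner chain, changed by -0.19 and Lamb3, a chain of the laminin they bind, by -0.0050, and neither was called. Elf3 was at 3.92, 3.44 and 3.61 CPM in knockout, above all its controls, with a change of 0.64 (SE 0.27, edgeR adjusted p = 0.133). Macrophage genes moved with the knockout, 12 of 12 called higher, with sums of 79.3 to 111 CPM in control and 350 to 386 CPM in knockout. Of the 16 muscle genes 12 were higher, with sums up to 128 CPM in control and from 217 to 1255 CPM in knockout. All 9 cartilage genes tested were lower, with sums over the 12 listed of 884 to 2835 and 322 to 577 CPM. Their part in the values of the members was not tested.

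Knockout against vehicle set the knockout beside the other wild type group and shares the knockout libraries with the comparison above. Here 1 member was higher, Krt5, and 1 lower, Grhl3, with 6.7% of all genes higher and 4.13% lower. The median change was -0.21 against -0.0033 over all genes. Krt5 was at 8.62, 5.41 and 12.1 CPM in knockout against 1.79, 2.34 and 2.46 CPM with vehicle, without overlap, a change of 1.97 (SE 0.39, edgeR adjusted p = 0.00561). That call held in all 15 alternatives.

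Grhl3, a Grainyhead-like factor of periderm and surface epithelium (chromosome 4, 135541888 to 135573630, minus strand), was at 20.3, 14.3 and 25.99 CPM in knockout and at 32.3, 31.9 and 30.5 CPM with vehicle. The groups were apart, and Grhl3 fell by 0.65 (SE 0.19, edgeR adjusted p = 0.0451). The call was lost without knockout 1 (0.0943), knockout 2 (0.170), vehicle 1 (0.107), vehicle 2 (0.0992) or vehicle 3 (0.101), and with only the groups compared (0.0518), over a range of 0.00181 to 0.170 in 15 alternatives. Against control, at 24.4, 17.1 and 25.1 CPM, Grhl3 in the knockout changed by -0.14 (SE 0.19, edgeR adjusted p = 0.698). Its vehicle libraries were the highest 3 of the 12.

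AzadC against vehicle asked what the drug changed beyond its vehicle. No member was called, 0 higher and 0 lower by edgeR, and over all genes 0.00577% were called higher and 0.00577% lower. An unadjusted p below 0.05 was found for 3 members, and the share of all genes at that threshold was again not taken. The median change was -0.19 against -0.0031 over all genes, and 26 of 39 members were below 0. DESeq2 called 1 member higher and 0 lower, Krt5 (adjusted p = 0.0306), and over all 17335 genes 81 higher and 8 lower.

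Krt5 was at 6.85, 3.27 and 7.51 CPM with AzadC, all above the 1.79 to 2.46 CPM of the vehicle libraries. The change was 1.41 (SE 0.39, edgeR adjusted p = 0.467). Krt15 was at 18.5, 16.5 and 20.4 CPM with AzadC, overlapping its vehicle libraries at the lowest value, and changed by 0.53 (SE 0.22, edgeR adjusted p = 0.771). Grhl3 was at 19.1, 24.8 and 23.9 CPM with AzadC, all below its vehicle libraries, and changed by -0.48 (SE 0.19, edgeR adjusted p = 0.723). Such separation was not particular to Krt5 and Grhl3. The AzadC libraries were also all below the vehicle libraries for Trp63, Grhl2, Esrp1, Cldn4, Cldn7, Dsp, Jup and Lama5, and all above for Ovol1. None of these was called, and the share of all genes separated in this way was not taken. Krt14 was at 7.09, 3.81 and 7.74 CPM, Ehf at 0.945, 0.182 and 1.67 CPM and Dsc3 at 2.205, 2.06 and 3.14 CPM. Each of these 3 overlapped its vehicle libraries and lay below all 3 control libraries.

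The difference between the knockout effect, set against control, and the AzadC effect, set against vehicle, was tested gene by gene. It called 0 members higher and 1 lower, Dsc3, with 2.2% of all genes higher and 2.2% lower. The difference for Dsc3 was -2.001 (SE 0.44, edgeR adjusted p = 0.0220), from -2.30 in the knockout and -0.29 with AzadC. It was lost without control 2 (0.0594), knockout 1 (0.0535), knockout 2 (0.0638), vehicle 1 (0.0513), vehicle 3 (0.0550) or AzadC 3 (0.0709), over a range of 0.000567 to 0.0709 in 20 alternatives. For Krt5 the difference was -1.94 (SE 0.53, edgeR adjusted p = 0.0565). The Dsc3 libraries of knockout and AzadC were at like levels, 1.46 to 2.96 and 2.06 to 3.14 CPM, and the control and vehicle libraries were not.

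Lists of related genes were read for comparison. Of 20 other epithelial genes, 1 was higher in the knockout against control, Myo5b, and 1 in vehicle against control, Prom2, with the rest of the list not called in either. Myo5b, a motor of apical membrane traffic, was at 6.61, 4.55 and 6.90 CPM in control and at 18.1, 10.3 and 10.2 CPM in knockout, a change of 1.10 (SE 0.26, edgeR adjusted p = 0.0129). That call was lost without control 2 (0.0608), without knockout 1 (0.0616) or without control 2 and knockout 2 together (0.0678). Prom2 was at 3.96, 2.87 and 3.14 CPM in control and at 8.84, 5.14 and 8.83 CPM with vehicle (1.18, SE 0.27, edgeR adjusted p = 0.0296; 0.0848 to 0.116 without control 2, control 3, vehicle 1 or vehicle 3).

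Of 19 tested signals and regulators of the palate epithelium, 1 was higher in knockout against control, Bnc1, and 2 were lower, Tgfb3 and Sostdc1. Tgfb3, the growth factor of the medial edge epithelium that is required for palate fusion, was at 64.9, 65.7 and 65.0 CPM in control, at 42.2, 41.5 and 45.5 CPM in knockout, at 51.4, 55.1 and 49.8 CPM with vehicle and at 52.6, 44.3 and 52.3 CPM with AzadC. It fell by 0.60 in knockout against control (SE 0.08, edgeR adjusted p = 0.000256), a call that held in all 17 alternatives. The 3 control libraries were the highest of the 12. Tgfb3 was not low in control 2, at 65.7 CPM, as Epcam was, and bulk RNA does not give its level in the epithelium. Sostdc1, a secreted inhibitor of BMP and Wnt signals, was at 55.9, 50.9 and 65.5 CPM in control and at 27.9, 35.1 and 41.4 CPM in knockout, a fall of 0.72 (SE 0.15, edgeR adjusted p = 0.0055). Bnc1, a zinc finger protein of basal keratinocytes, was at 5.93, 5.97 and 2.91 CPM in control and at 21.5, 12.7 and 14.3 CPM in knockout. It rose by 1.70 (SE 0.45, edgeR adjusted p = 0.0233), lost without control 2 (0.0525), control 3 (0.0696), knockout 1 (0.0865) or both low libraries (0.0848), over a range of 2.71e-05 to 0.0865 in 17 alternatives.

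Of 21 periderm and stratified epithelium genes only 10 had counts enough to test. Krt17 was the member of that list called in the knockout, at 2.10, 1.43 and 3.91 CPM, a fall of 1.40 (SE 0.42, edgeR adjusted p = 0.0422). It was lost without control 1 (0.0886), control 2 (0.0503), control 3 (0.112), knockout 1 (0.125), knockout 2 (0.163) or both low libraries (0.165), and its lowest adjusted p in 17 alternatives was 0.00353. The late differentiation genes Sprr1b and Cnfn had 0 counts in all 12 libraries. Of 13 other hemidesmosome and basement membrane genes 1 was called, Col4a5, at 40.0, 48.7 and 48.6 CPM in control and at 37.0, 26.3 and 37.8 CPM in knockout (-0.44, SE 0.13, edgeR adjusted p = 0.0328; 0.115, 0.0962 and 0.114 without control 2, control 3 or knockout 2, over a range of 0.00371 to 0.287).

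In the list of mesenchyme genes and repressors of epithelial genes, 1 of 15 was higher and 7 were lower in the knockout. Zeb2, an E-box repressor of Cdh1, was at 112, 117 and 116 CPM in control and at 90.5, 78.8 and 73.5 CPM in knockout, and fell by 0.50 (SE 0.08, edgeR adjusted p = 0.000892). Snai1, a repressor of the same class, was at 45.1, 36.8 and 24.7 CPM in control and at 19.5, 12.7 and 18.9 CPM in knockout and fell by 1.07 (SE 0.21, edgeR adjusted p = 0.00489; 0.0718 without control 2 and knockout 2 together). Twist1, a mesenchymal transcription factor, fell by 0.76 (SE 0.14, edgeR adjusted p = 0.00319). The mesenchyme genes Pdgfrb and Pdgfra changed by -0.38 (SE 0.07, edgeR adjusted p = 0.00208) and -0.50 (SE 0.09, 0.00265). Twist2 and Col1a2, the others called lower, changed by -0.89 (edgeR adjusted p = 0.0164) and -0.39 (0.0373). Of 17 alternatives, the call held in 14 for Twist2 and in 10 for Col1a2, with adjusted p up to 0.133 and 0.34. Zeb1 was higher by 0.28 (SE 0.09, edgeR adjusted p = 0.0490), a call lost in 9 of 17 alternatives, among them without any of control 1, control 2, control 3, knockout 1 or knockout 2 (0.0538 to 0.183). Bulk RNA does not give the level of these repressors in the epithelium. Zeb1 was picked out after its values were seen.

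The genes whose pattern over the 12 libraries was most like the mean of the members were Trim29 (r = 0.93), Bnipl (0.91), Grb7 (0.90), Dmrt3 (0.89) and Shank2 (0.88), followed by Map7, Perp, Elf5, Plch2, Rnf43, Upk2, Sox2, Myh14, Dact2 and Borcs5 (0.88 to 0.83). They were taken from 13063 genes above a mean of 1 CPM by Pearson's r of log2 CPM with the member score. Perp and Sox2 were already in the lists of epithelial genes used here.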

How the data were processed

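Reads were trimmed with Trim Galore, aligned with STAR 2.7.0 to mm10 and quantified with RSEM 1.3.1, per the submitters' processing notes, which give no roles or settings for these tools; the sources used here do not say whether strand was used. The deposited per-library files hold RSEM expected counts, which the authors made per gene and which were rounded here to whole numbers. The deposited TPM values, which the authors' RSEM run scaled by effective length, served to compare levels between genes. The resulting order of genes and the ratios to Epcam within a library were also set beside each other between groups, without a test. The members and lists were chosen with earlier results of these data known. Counts were scaled by TMM (factors 0.985 to 1.01) and filtered with filterByExpr, and edgeR 4.0.16 (R 4.3.3) fitted 1 mean per group over all 12 libraries by quasi-likelihood, with Benjamini-Hochberg adjustment over 17335 genes. The comparisons share groups: control, knockout and vehicle each enter more than 1. Alternatives used DESeq2 1.42.0, limma 3.58.1 (voom), scaling by upper quartile or RLE, a filter at a mean of 1 CPM or none, the compared groups alone, a replicate block, the epithelial score as covariate and each library left out. Scores are means of centred log2(CPM + 0.5). Depth limits genes of few reads, and a count of 0 allows up to 3 counts. Replicates differed beyond sampling noise (mean chi-square per gene 7.43 to 23.8). Deviations of same-numbered libraries correlated at 0.417, 0.131 and 0.342 between control and knockout. No label says what the numbers mark, and they count as pairs there by the data alone. Over all 18 same-number pairs, r ran from -0.27 to 0.417 and 6 exceeded 0.1. Pairs of unlike number ran from -0.42 to 0.257. Among them, control 3 with knockout 2 was at 0.128, near the 0.131 of control 2 with knockout 2. The scripts were tested on simulated data. Library values are given for members called in any comparison and those of described roles, and for up to 4 genes per list with the smallest adjusted p. Twist1, Pdgfra and Pdgfrb are given by their changes only. Some genes of the palate signal list are withheld and not reported here, and the counts of that list leave them out.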

Additional observations from a re-analysis of the deposited data

Results flagged for a closer look

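The effect of the knockout, set against control, differed from the effect of AzadC, set against vehicle, by edgeR's test of the difference itself for 1 of 39 members, for Dnmt1 and for 8 genes of the epithelial, mesenchyme and repressor lists. These 8 were 1 of 20 other epithelial genes, 1 of 19 palate signals and regulators and 6 of 15 mesenchyme genes and repressors. Over all genes tested, 2.2% were called higher and 2.2% lower. Dsc3, the desmosomal cadherin of basal layers, had a difference of -2.0 on the log2 scale. Among genes of the epithelial lists, the differences were 1.68 for Myo5b and -0.53 for Tgfb3. Among repressors and mesenchyme genes they were -1.17 for Snai1, -1.10 for Twist1, -0.68 for Zeb2, -0.64 for Col1a2, -0.50 for Pdgfra and -0.41 for Pdgfrb. For Dnmt1 itself the difference was -0.47. All 4 groups enter this test, and the 2 reference groups themselves differed for some of these genes. Vehicle against control was called for Dsc3 (-1.76), Dnmt1 (0.72), Tgfb3 (-0.32) and Zeb2 (0.30), and not for the other genes named here. Of 15 alternatives, that call held in 15 for Dnmt1 and in 14 for Dsc3, but in only 7 for Tgfb3 and 7 for Zeb2. Of 20 alternatives, the difference passed the threshold in 20 for Zeb2 and Twist1, in 17 for Tgfb3 and Dnmt1, in 16 for Myo5b and in 14 for Dsc3 and Pdgfrb. The difference passed in 11 for Col1a2, in 9 for Pdgfra and in 8 for Snai1, with adjusted p up to 0.109, 0.115 and 0.108. Among markers of other cells, the same test called 8 of 12 macrophage genes, 2 of 16 muscle genes and 1 of 8 neuronal genes higher, and 3 of 9 cartilage genes lower.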

How the results depend on the processing

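The calls of Dsc3 in knockout against control and of Krt5 in vehicle against control and in knockout against vehicle held in every alternative run. In knockout against control, 1 member was higher with DESeq2 and with limma-voom (Itga6) and 1 with the block on control and knockout libraries alone (Lama5), and 0 to 1 with each library left out. Lower there were 4 with no filter, 3 with the replicate block over 12 libraries, 5 with the epithelial covariate, 5 with the paired block on those 6 libraries alone, and 1 to 3 with a library left out. For AzadC against vehicle 1 was higher with DESeq2 and 1 with no filter. In vehicle against control 2 were lower with limma-voom, 7 lower and 1 higher with no filter, and 1 to 4 lower with a library left out. In knockout against vehicle 3 were higher with DESeq2, and 2 with limma-voom, no filter, a mean above 1 CPM, the replicate block, the covariate or the compared groups alone, and 1 to 2 with a library left out. Lower there were 2 with DESeq2 or the covariate, 3 with no filter, 0 with the compared groups alone and 0 to 3 with a library left out. For the difference of effects 2 were lower with DESeq2, the replicate block or the covariate, 3 lower and 1 higher with no filter, and 0 to 3 lower with a library left out, and its median moved from 0.07 to -0.27 with the covariate. The cause of these moves was not tested. Epcam in knockout against control ran from -0.51 to 0.02 with a library left out, above 0 without control 1 (0.0197) or knockout 2 (0.0202).

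Over all genes, AzadC against vehicle called 1 higher and 1 lower, 81 and 8 with DESeq2 and 102 and 17 with no filter, and 16 higher without vehicle 1. Vehicle against control called 253 and 357, 569 and 756 with DESeq2 and 487 and 772 with no filter, and 46 and 90 without vehicle 1 or 52 and 85 without vehicle 3. The difference of effects called 382 and 381, 755 and 704 with DESeq2 and 704 and 734 with no filter. With no filter, knockout against vehicle called 1524 and 878, against 1162 and 716. Without knockout 2 it called 716 and 294, without vehicle 3 768 and 369 and without vehicle 2 971 and 474. The difference of effects fell to as few as 168 and 160, without knockout 2. Without control 2 vehicle against control called 97 and 185. Knockout against control called 1358 and 1115 of 17335, 1594 and 1336 with DESeq2, 1435 and 1132 with limma-voom, 1228 and 1016 with the replicate block, 1598 and 1315 of 30933 with no filter, 808 and 552 without knockout 2, 875 and 624 without control 2, and 458 and 257 without control 2 and knockout 2, a setting that, like the 6-library block, was chosen after seeing the data. Pairing by number is a hint from the data, since no label ties a number to a litter or day.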
